A study of Mus musculus with 21 samples.

Results

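The genes described here encode collagen chains and the enzymes and chaperones that modify, fold, trim and cross-link them, followed across mouse osteoblast cultures given parathyroid hormone (PTH) analogs or vehicle. Members were taken from a fixed list of 45 gene symbols, by finding the array row whose single gene symbol was on the list and keeping the row with the highest mean where a gene had several. The list gave 42 measured genes of the 22180 that could be named in this way, namely 29 of 29 collagen chains and 13 of 16 enzymes and chaperones. Loxl2 and Plod3 were represented only by rows that carry several gene symbols and Fkbp10 by no row used here, so these 3 genes were not analysed.

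Osteoblasts, the bone-forming cells, were isolated from the skull vault of C57BL/6J pups aged 7 to 10 days, and RNA was hybridised to Affymetrix Mouse Gene 2.0 ST arrays. Of the 6 analogs, 3 begin at the first residue of the hormone and are called intact here, namely human PTH(1-34), written hPTH(1-34), the shorter hPTH(1-31) and the longer PTH(1-36). The remaining 3 start further along the hormone and are called truncated here, namely bovine PTH(3-34), written bPTH(3-34), human hPTH(7-34), and bPTH(7-34), a bovine amide with substitutions at 2 positions. The dose was 100 nM for each analog except bPTH(7-34), which was given at 1000 nM, and vehicle was the control. All cultures were at passage 2, had been differentiated from day 3 in medium with ascorbic acid and beta-glycerophosphate, were deprived of serum on day 10 for 24 h, and were exposed for 4 h. There were 3 arrays in each of the 7 groups, 21 in all, from cells prepared independently for each replicate. Each analog was compared with the same 3 vehicle arrays, so the 6 comparisons with vehicle are not independent of each other. The cultures were analysed whole: RNA of macrophage genes was present (Lyz2 averaged 12.2 and Csf1r 10.2 in vehicle arrays), whereas the late osteoblast gene Bglap averaged 3.73 and Dmp1 3.28, near the array medians of 3.49 to 3.61. Both are on a list of 8 measured osteoblast markers that summed to 51.85 to 53.47 in vehicle arrays, so the others were brighter on average. In RNA from whole cultures, fewer cells of a type and less RNA per cell cannot be told apart.

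Collagens are built from 3 chains wound into a triple helix. Inside the cell, prolyl 4-hydroxylases stabilise the helix, lysyl hydroxylases prepare sites for sugars and cross-links, a prolyl 3-hydroxylase complex modifies single prolines, and the chaperone Hsp47 guards folding. Outside the cell, propeptides are cut off, chains assemble into fibrils or networks, and lysyl oxidases start the covalent cross-links. Bone matrix is mainly type I collagen, made of Col1a1 and Col1a2 chains. Intact PTH analogs act through a receptor that raises cyclic AMP, a messenger whose transcription factor CREB recognises the palindrome TGACGTCA.

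Promoter sequences are shown for Col24a1 and Col8a1, the 2 chains called in the F test over the analogs, with the cyclic AMP element present in one and not found in the other. Both come from RefSeq on build GRCm38.p6 and cover 250 bases before the gene start and 20 bases after it. Col24a1 lies on the plus strand at chr3:145292222-145292491, and capitals mark the cyclic AMP response element. Col8a1 lies on the minus strand at chr16:57754718-57754987 and is printed 5′ to 3′ without capitals because none of the motifs searched was found in it.
Col24a1: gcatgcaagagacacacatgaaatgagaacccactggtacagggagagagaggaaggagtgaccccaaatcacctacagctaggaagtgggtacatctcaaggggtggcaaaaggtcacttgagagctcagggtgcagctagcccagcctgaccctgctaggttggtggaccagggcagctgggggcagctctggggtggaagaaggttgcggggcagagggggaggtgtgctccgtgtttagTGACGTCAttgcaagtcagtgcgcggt
Col8a1: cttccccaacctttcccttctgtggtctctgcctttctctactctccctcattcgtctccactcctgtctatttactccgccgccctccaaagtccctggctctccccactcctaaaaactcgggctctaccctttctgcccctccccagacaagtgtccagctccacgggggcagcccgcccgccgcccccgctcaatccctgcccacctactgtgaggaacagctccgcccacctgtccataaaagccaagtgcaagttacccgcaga

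RefSeq promoter windows of 300 bases, 250 before and 50 after the start, were matched for 32 of the 42 genes. Plod2 was among the 10 genes without a window, so its promoter was not searched for any of these motifs. The palindrome TGACGTCA occurred in 1.79% of all 32851 windows and in 1 member, Col24a1. Its half-site, TGACG or CGTCA on the other strand, which the palindrome also contains, occurred in 20.8% of all windows and in 6 of 32 members (18.8%), which were Col11a2, Col24a1, Col4a5, Col7a1, Loxl4 and P4ha2. The core of the hypoxia response element, ACGTG or CACGT, occurred in 19.6% of all windows and in 7 of 32 members (21.9%). Such matches describe the letters only.

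Signals are given on the scale of the deposited table, read as log2, so that a difference of 1 is a factor of 2. A gene was called changed at an adjusted p under 0.05 in limma's moderated test over all genes. Across all treatments the collagen genes varied little. Their group means spanned a median of 0.19, against 0.35 over all genes, and 40 of 42 members kept all 7 group means within 0.5. The residual standard deviation (SD) within groups had a median of 0.11 for members and 0.18 for all genes. Members were brighter than most genes, with 41 of 42 vehicle means above the highest array median, and genes of similar brightness were not compared. By the F test over the 6 analogs, 3 of 42 members were called, against 12.2% of all genes. These were Plod2, Col24a1 and Col8a1.

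**Figure D1:**
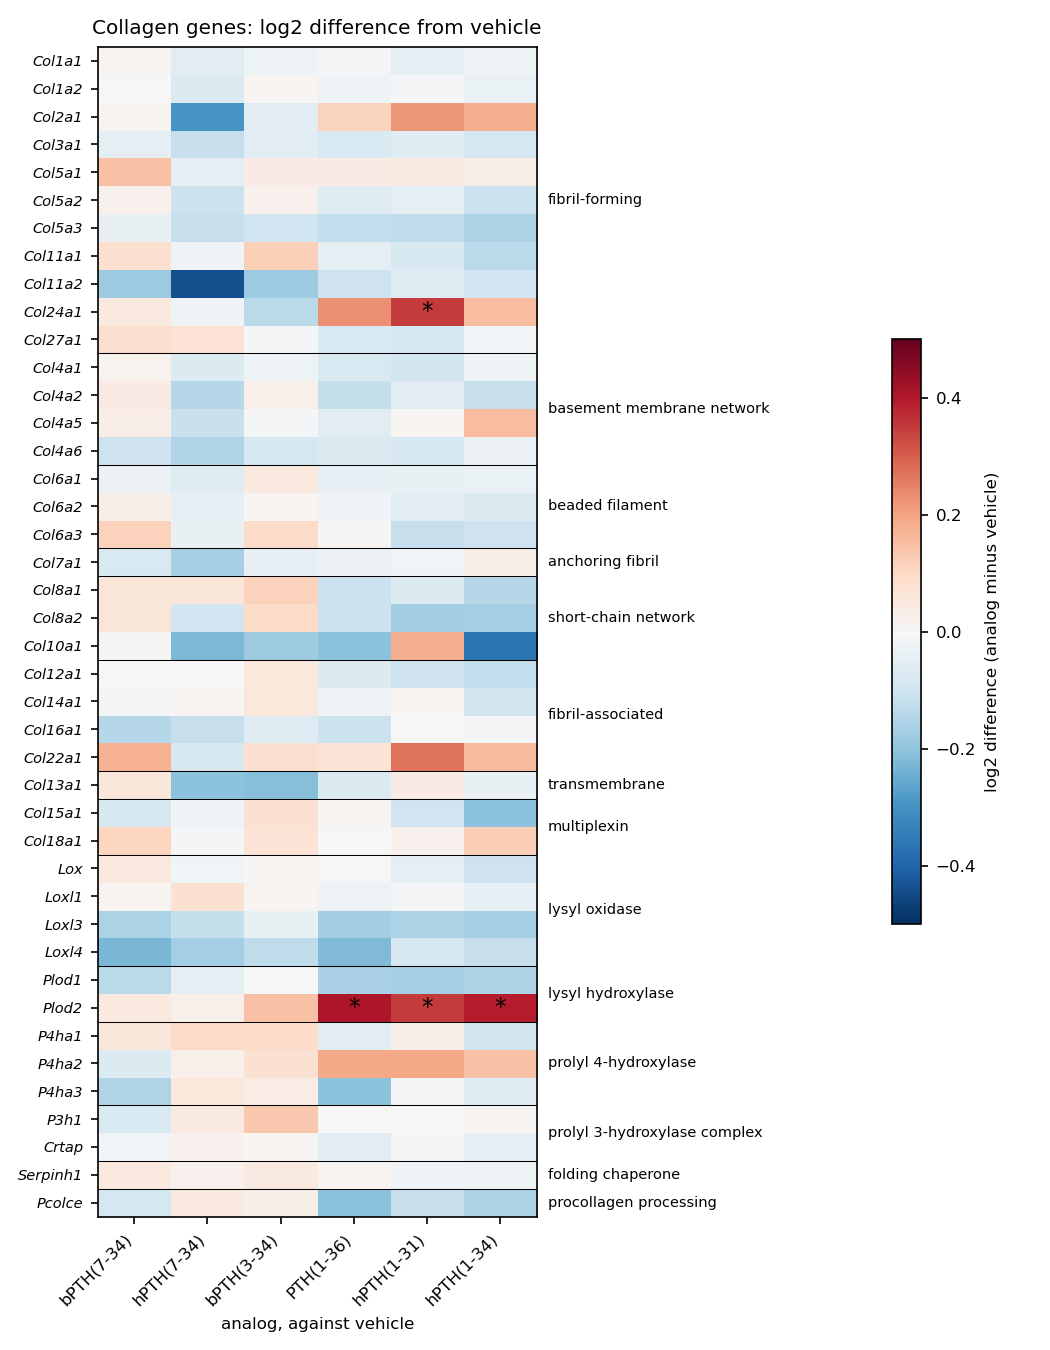
Log2 difference from vehicle (analog minus vehicle, colour) of the 42 collagen genes (rows, by class) for each of the 6 analogs (columns), with asterisks at an adjusted p under 0.05. Most cells are pale, and the asterisks fall on Plod2 under the 3 intact analogs and on Col24a1 under hPTH(1-31).

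Plod2 was the member that responded to every intact analog. It encodes lysyl hydroxylase 2, which hydroxylates lysines in the end regions of collagen chains and so sets the type of cross-link that forms. Its signals were 9.29, 9.16 and 9.40 in hPTH(1-34) arrays, 9.27, 9.20 and 9.25 in hPTH(1-31) arrays, and 9.19, 9.21 and 9.48 in PTH(1-36) arrays. With the truncated analogs they were 9.02, 8.96 and 9.13 (bPTH(3-34)), 9.02, 8.82 and 8.91 (hPTH(7-34)) and 8.92, 8.86 and 9.04 (bPTH(7-34)). Vehicle arrays gave 8.94, 8.86 and 8.87. All 9 arrays of intact analogs were above every other array, and bPTH(3-34) arrays also lay above the vehicle arrays while the arrays of both (7-34) analogs overlapped them. Plod2 was higher than in vehicle by 0.39 ± 0.09 with hPTH(1-34) (SE, adjusted p = 0.0102), by 0.35 ± 0.09 with hPTH(1-31) (adjusted p = 0.0224) and by 0.40 ± 0.09 with PTH(1-36) (adjusted p = 0.00993). The hPTH(1-34) difference is a fold of 1.31, and its log2 value had a 95% interval of 0.20 to 0.59. Differences from vehicle were 0.15 with bPTH(3-34) (95% interval -0.05 to 0.34), 0.03 with hPTH(7-34) (-0.17 to 0.22) and 0.05 with bPTH(7-34) (-0.15 to 0.25), and none was called.

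Plod2 was the 1 member called with hPTH(1-34), where 8.64% of all genes were called and 3.9% called higher. It was also the 1 member called with PTH(1-36), beside 7.23% of all genes called and 3.68% called higher. With hPTH(1-31), 2 members were called, Plod2 and Col24a1, beside 8.7% of all genes called and 4.38% called higher. No member was called lower in any of these 3 comparisons. With the 9 intact arrays as 1 group, a contrast added after the separate results were seen, Plod2 was the 1 member called (0.38 ± 0.08, adjusted p = 0.00190), beside 11.9% of all genes called and 5.45% called higher. The Plod2 calls rest on the spread pooled over all groups: with only the arrays of the compared groups in the fit, the adjusted p was 0.0878 with hPTH(1-34), 0.0993 with hPTH(1-31) and 0.153 with PTH(1-36). Without the third hPTH(1-34) array the adjusted p of that comparison was 0.0603, without the third PTH(1-36) array 0.0635, and the hPTH(1-31) call was lost without any of 4 arrays (adjusted p up to 0.0755), while the contrast of all intact arrays kept the call whichever array was left out (adjusted p up to 0.0160) and with only its own 12 arrays in the fit (0.0126).

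**Figure D2:**
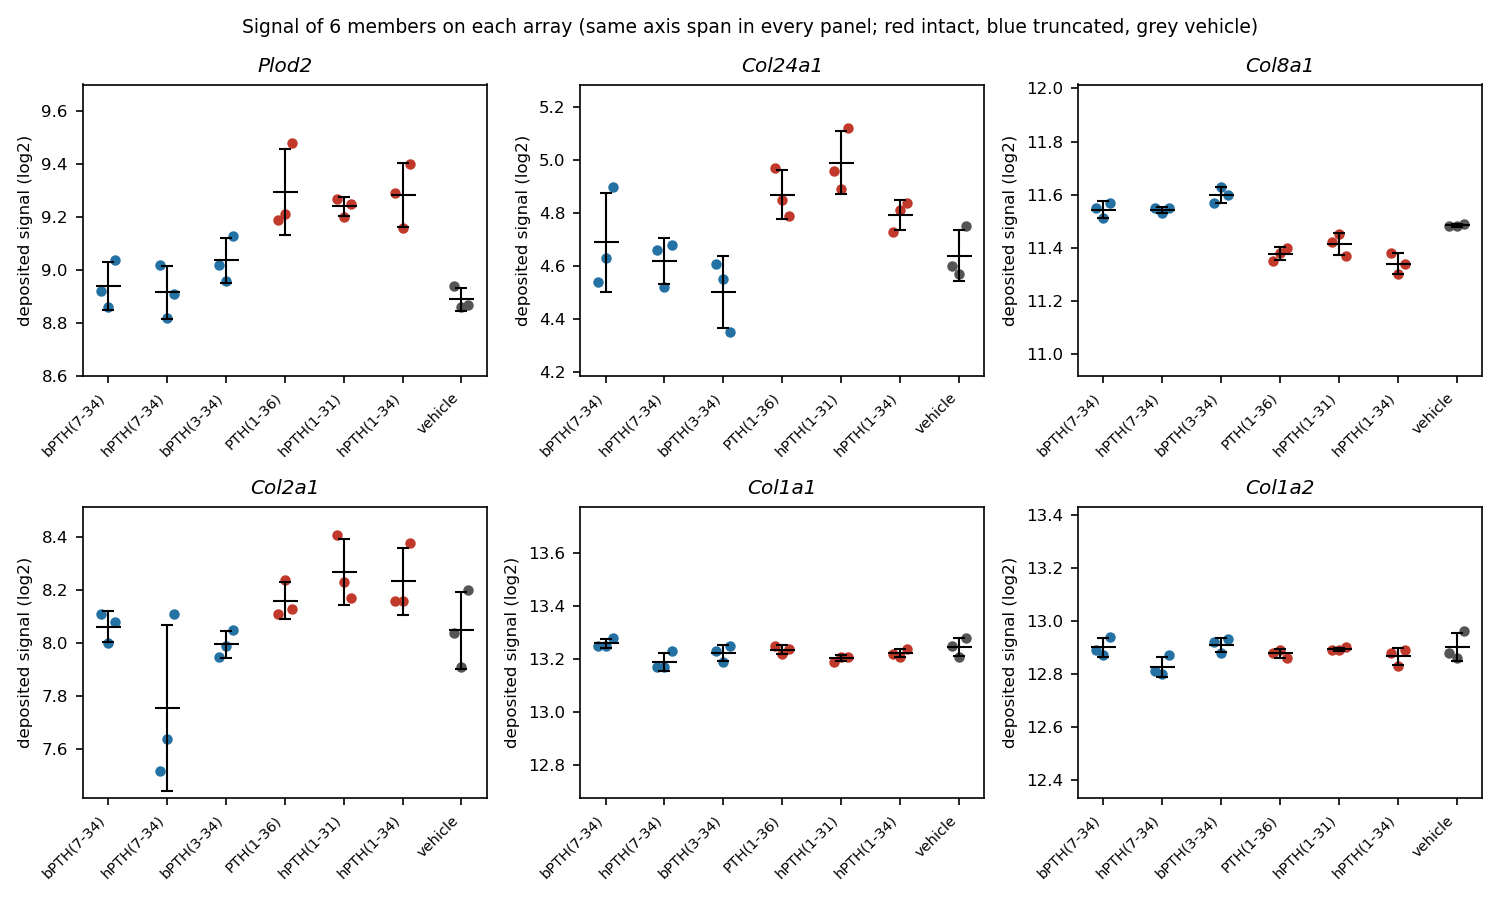
Deposited signal (log2, vertical axis, with the same span in each panel) of 6 collagen genes on every array, by treatment (truncated analogs in blue, intact analogs in red, vehicle in grey), with the mean and SD of 3 arrays as black bars. Plod2 points are higher in the intact groups, Col8a1 points fall into 3 levels, and Col1a1 and Col1a2 points stay within 13.17 to 13.28 and 12.80 to 12.96.

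Col1a1 and Col1a2, the chains of type I collagen, showed no called change with any analog. Col1a1 read 13.22, 13.21 and 13.24 with hPTH(1-34), 13.19, 13.21 and 13.21 with hPTH(1-31), and 13.25, 13.22 and 13.24 with PTH(1-36). It read 13.23, 13.19 and 13.25 with bPTH(3-34), 13.17, 13.17 and 13.23 with hPTH(7-34), 13.25, 13.25 and 13.28 with bPTH(7-34), and 13.25, 13.21 and 13.28 with vehicle. The groups overlapped throughout, and hPTH(1-34) differed from vehicle by -0.02 (95% interval -0.15 to 0.11), that is -9.99% to 7.56%. Col1a2 group means lay between 12.83 (hPTH(7-34)) and 12.91 (bPTH(3-34)), with 12.9 ± 0.05 in vehicle, and hPTH(1-34) differed from vehicle by -0.03 (95% interval -0.17 to 0.10). Col1a1 signals lay close to the lowest array maximum, 13.44, and compression of differences at the top of the scale was not tested. A second, dimmer row of Col1a2, which averaged 9.97 in vehicle, differed with hPTH(1-34) by -0.14 and was not called (adjusted p = 0.660).

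Col3a1, the type V chains, Col11a1 and Col27a1 were not called in any comparison with vehicle either. Col3a1, the type III chain of compliant tissues, differed from vehicle by -0.09 with hPTH(1-34) and by -0.12 with hPTH(7-34), the lowest of its 6 differences, and was not called. Col5a1, Col5a2 and Col11a1, chains of the minor fibrillar collagens that set fibril width, kept their group means within 10.22 to 10.41, 10.78 to 10.91 and 10.03 to 10.29. Col5a3 group means lay between 6.58 (hPTH(1-34)) and 6.73 (vehicle), and Col27a1, a fibrillar chain known from cartilage, between 6.03 (hPTH(1-31)) and 6.19 (bPTH(7-34)).

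Col24a1 was the 1 fibril-forming chain called against vehicle and the 1 called in the F test. It encodes a fibril-forming chain known from developing bone. Col24a1 was dim, with a vehicle mean of 4.64 beside array medians of 3.49 to 3.61, and 1 of 6 members with a vehicle mean under 5. Its signals were 4.73, 4.81 and 4.84 with hPTH(1-34), 4.96, 4.89 and 5.12 with hPTH(1-31), and 4.97, 4.85 and 4.79 with PTH(1-36). They were 4.61, 4.55 and 4.35 with bPTH(3-34), 4.66, 4.52 and 4.68 with hPTH(7-34), 4.54, 4.63 and 4.90 with bPTH(7-34), and 4.60, 4.57 and 4.75 with vehicle. The hPTH(1-31) and PTH(1-36) arrays were all above the vehicle arrays, while hPTH(1-34) and bPTH(7-34) arrays overlapped them. Col24a1 rose with hPTH(1-31) by 0.35 ± 0.10 (adjusted p = 0.0414), a fold of 1.27, with a 95% interval of 0.13 to 0.57 on the log2 scale. The difference was 0.23 ± 0.10 with PTH(1-36) (adjusted p = 0.228) and 0.15 ± 0.10 with hPTH(1-34) (adjusted p = 0.472), neither called, and hPTH(1-31) against hPTH(1-34) gave 0.20 (95% interval -0.02 to 0.41). The hPTH(1-31) call was lost with only the compared arrays in the fit (adjusted p = 0.157), with a variance trend (0.0700) and without any of 4 arrays (up to 0.175).

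Col2a1, the main chain of cartilage fibrils, read 8.16, 8.16 and 8.38 with hPTH(1-34), 8.41, 8.23 and 8.17 with hPTH(1-31), and 8.11, 8.24 and 8.13 with PTH(1-36). It read 7.95, 7.99 and 8.05 with bPTH(3-34), 7.52, 7.64 and 8.11 with hPTH(7-34), 8.11, 8.0 and 8.08 with bPTH(7-34), and 8.04, 7.91 and 8.20 with vehicle. The first 2 hPTH(7-34) arrays were the lowest of all 21 and the third was not, so the low mean of that group rests on 2 arrays. Against vehicle the hPTH(7-34) difference was -0.29 ± 0.12 and was not called (adjusted p = 0.569).

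Col11a2, a minor chain of cartilage fibrils, read 5.64, 5.48 and 5.41 with hPTH(1-34), 5.62, 5.56 and 5.45 with hPTH(1-31), and 5.46, 5.60 and 5.45 with PTH(1-36). It read 5.51, 5.39 and 5.37 with bPTH(3-34), 5.18, 4.87 and 5.45 with hPTH(7-34), 5.32, 5.45 and 5.51 with bPTH(7-34), and 5.67, 5.48 and 5.67 with vehicle. Here too the first 2 hPTH(7-34) arrays were the lowest. The difference from vehicle of -0.44 ± 0.12 was the lowest among all members and comparisons with vehicle and was not called (adjusted p = 0.309). Chondrocyte markers gave summed signals of 53.17 to 54.39 over 9 genes in hPTH(7-34) arrays and 53.8 to 54.84 in vehicle arrays. Col2a1 and Col10a1 are themselves on that list, and a part of cartilage cells in these values was not tested.

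Col10a1, the chain of hypertrophic cartilage, was dim. It read 3.67, 3.32 and 3.58 with hPTH(1-34), 4.16, 3.84 and 4.20 with hPTH(1-31), and 3.56, 3.72 and 3.77 with PTH(1-36). It read 3.31, 4.13 and 3.70 with bPTH(3-34), 3.77, 3.63 and 3.60 with hPTH(7-34), 3.72, 4.05 and 3.92 with bPTH(7-34), and 3.95, 3.97 and 3.75 with vehicle. Its group means spanned 0.54, the widest of any member. Arrays within a group were also far apart, as with bPTH(3-34), and no comparison called it. With hPTH(1-34) the difference from vehicle was -0.37 (95% interval -0.71 to -0.03, adjusted p = 0.208).

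Col8a1 separated intact analogs, vehicle and truncated analogs on every array. It encodes a short-chain collagen that forms hexagonal networks, known from vessel walls and the cornea. It read 11.38, 11.30 and 11.34 with hPTH(1-34), 11.42, 11.45 and 11.37 with hPTH(1-31), and 11.35, 11.38 and 11.40 with PTH(1-36). It read 11.57, 11.63 and 11.60 with bPTH(3-34), 11.55, 11.53 and 11.55 with hPTH(7-34), and 11.55, 11.51 and 11.57 with bPTH(7-34), against 11.48, 11.48 and 11.49 with vehicle. Every intact array was below every vehicle array and every truncated array above it. Arrays of an analog lay wholly outside the vehicle arrays for 20.5% to 23.4% of all genes with the intact analogs. With the truncated analogs this share was 8.48% to 12.3%. How many genes separated all groups in this order was not counted. The Col8a1 vehicle arrays were close together (SD 0.006), and its residual SD was 0.03, against a median of 0.18 for all genes. The steps were small: differences from vehicle were -0.14, -0.07 and -0.11 with hPTH(1-34), hPTH(1-31) and PTH(1-36), and 0.12, 0.06 and 0.06 with bPTH(3-34), hPTH(7-34) and bPTH(7-34). None of these 6 differences was called, the lowest adjusted p being 0.198 with hPTH(1-34), although the F test over all 6 called the gene (adjusted p = 0.0367). With a variance trend in limma, 2 members were called with hPTH(1-34), Col8a1 and Plod2.

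Its partner chain Col8a2 read 8.13, 8.01 and 8.27 with hPTH(1-34), 8.11, 7.95 and 8.33 with hPTH(1-31), and 8.15, 8.11 and 8.33 with PTH(1-36). It read 8.43, 8.28 and 8.49 with bPTH(3-34), 8.14, 8.16 and 8.32 with hPTH(7-34), 8.39, 8.35 and 8.35 with bPTH(7-34), and 8.15, 8.26 and 8.50 with vehicle. All groups overlapped vehicle, and the difference with hPTH(1-34) was -0.17 ± 0.11 (adjusted p = 0.470).

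Basement membrane, beaded filament and fibril-associated chains gave no call in any comparison with vehicle. Col4a1 and Col4a2, whose genes start 221 bases apart and are read in opposite directions, had group means within 8.14 to 8.24 and 8.30 to 8.48. Col6a1, Col6a2 and Col6a3, the chains of the beaded filaments around cells, differed from vehicle with the intact analogs together by a median of -0.05. The fibril-associated Col12a1 and Col14a1 and the transmembrane chain Col13a1 had group means within 12.14 to 12.32, 9.13 to 9.28 and 4.69 to 4.96. Col16a1, another fibril-associated chain, and Col4a5, a basement membrane chain, had group means within 7.18 to 7.32 and 5.58 to 5.84. Col7a1, the chain of anchoring fibrils below epithelia, and Col4a6 were dim, with vehicle means of 4.79 ± 0.17 and 3.50 ± 0.26. Col4a6 was the 1 member of 42 whose vehicle mean was not above the highest array median.

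Col22a1, a fibril-associated chain of tissue junctions, read 3.88, 4.15 and 3.79 with hPTH(1-34), 4.18, 3.85 and 4.13 with hPTH(1-31), and 3.82, 3.77 and 3.97 with PTH(1-36). It read 3.95, 3.74 and 3.90 with bPTH(3-34), 3.72, 3.73 and 3.66 with hPTH(7-34), 3.89, 3.88 and 4.10 with bPTH(7-34), and 3.71, 3.75 and 3.89 with vehicle. The groups of intact analogs overlapped vehicle, and the difference with hPTH(1-31), 0.27 ± 0.11, was not called (adjusted p = 0.166).

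Col15a1, a chain found at the outer face of basement membranes, read 5.83, 5.77 and 5.70 with hPTH(1-34), 5.78, 5.92 and 5.91 with hPTH(1-31), and 5.84, 6.06 and 6.05 with PTH(1-36). It read 6.03, 6.09 and 6.02 with bPTH(3-34), 5.88, 6.04 and 5.94 with hPTH(7-34), 5.94, 5.81 and 5.92 with bPTH(7-34), and 5.86, 6.05 and 6.0 with vehicle. Only the hPTH(1-34) group lay wholly below vehicle, and its difference of -0.20 ± 0.08 was not called (adjusted p = 0.173). Its relative Col18a1 had group means within 6.57 to 6.70.

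Among the modifying enzymes, Plod2 was the 1 gene of 13 called. The shares of all genes called were 8.64% with hPTH(1-34), 8.7% with hPTH(1-31) and 7.23% with PTH(1-36). Plod1, which hydroxylates lysines in the helix, read 9.34, 9.12 and 8.98 with hPTH(1-34), 9.20, 9.18 and 9.01 with hPTH(1-31), and 9.13, 9.10 and 9.18 with PTH(1-36). It read 9.31, 9.31 and 9.27 with bPTH(3-34), 9.24, 9.33 and 9.18 with hPTH(7-34), 9.20, 9.24 and 9.06 with bPTH(7-34), and 9.31, 9.37 and 9.22 with vehicle. The hPTH(1-31) and PTH(1-36) arrays lay below all vehicle arrays and the hPTH(1-34) arrays did not. For the intact arrays together the Plod1 difference was -0.16 ± 0.07, on the other side of 0 from Plod2, and was not called (adjusted p = 0.203).

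P4ha2, a catalytic subunit of prolyl 4-hydroxylase, read 6.88, 6.75 and 6.83 with hPTH(1-34), 6.93, 6.84 and 6.82 with hPTH(1-31), and 6.87, 6.74 and 6.98 with PTH(1-36). It read 6.78, 6.72 and 6.75 with bPTH(3-34), 6.81, 6.70 and 6.59 with hPTH(7-34), 6.79, 6.58 and 6.45 with bPTH(7-34), and 6.54, 6.72 and 6.76 with vehicle. Only the hPTH(1-31) group was wholly above vehicle, and the difference for the intact arrays together, 0.18 ± 0.08, was not called (adjusted p = 0.188). The other catalytic subunits P4ha1 and P4ha3 had group means within 8.53 to 8.72 and 10.95 to 11.21.

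Pcolce speeds the removal of the carboxyl propeptide from procollagen. It read 10.14, 10.09 and 9.97 with hPTH(1-34), 10.14, 10.19 and 10.0 with hPTH(1-31), and 10.09, 10.12 and 9.86 with PTH(1-36). It read 10.30, 10.35 and 10.12 with bPTH(3-34), 10.27, 10.34 and 10.22 with hPTH(7-34), 10.17, 10.22 and 10.03 with bPTH(7-34), and 10.27, 10.32 and 10.09 with vehicle. The third array was the lowest in every group, and the intact groups overlapped vehicle. The difference for the intact arrays together was -0.16 ± 0.08 (adjusted p = 0.246).

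The remaining enzymes and the chaperone stayed close to vehicle. Serpinh1, which encodes Hsp47, had group means within 10.33 to 10.40, and hPTH(1-34) differed from vehicle by -0.02 (95% interval -0.17 to 0.12). Crtap and P3h1, partners in prolyl 3-hydroxylation, had group means within 10.91 to 10.99 and 8.53 to 8.75. The lysyl oxidase genes Lox, Loxl1, Loxl3 and Loxl4 were 4 of 4 below vehicle with the intact analogs together, by a median of -0.10, with 0 called. Loxl3, with the lowest difference (-0.16), had the widest vehicle arrays, 9.27, 9.15 and 8.61.

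**Figure D3:**
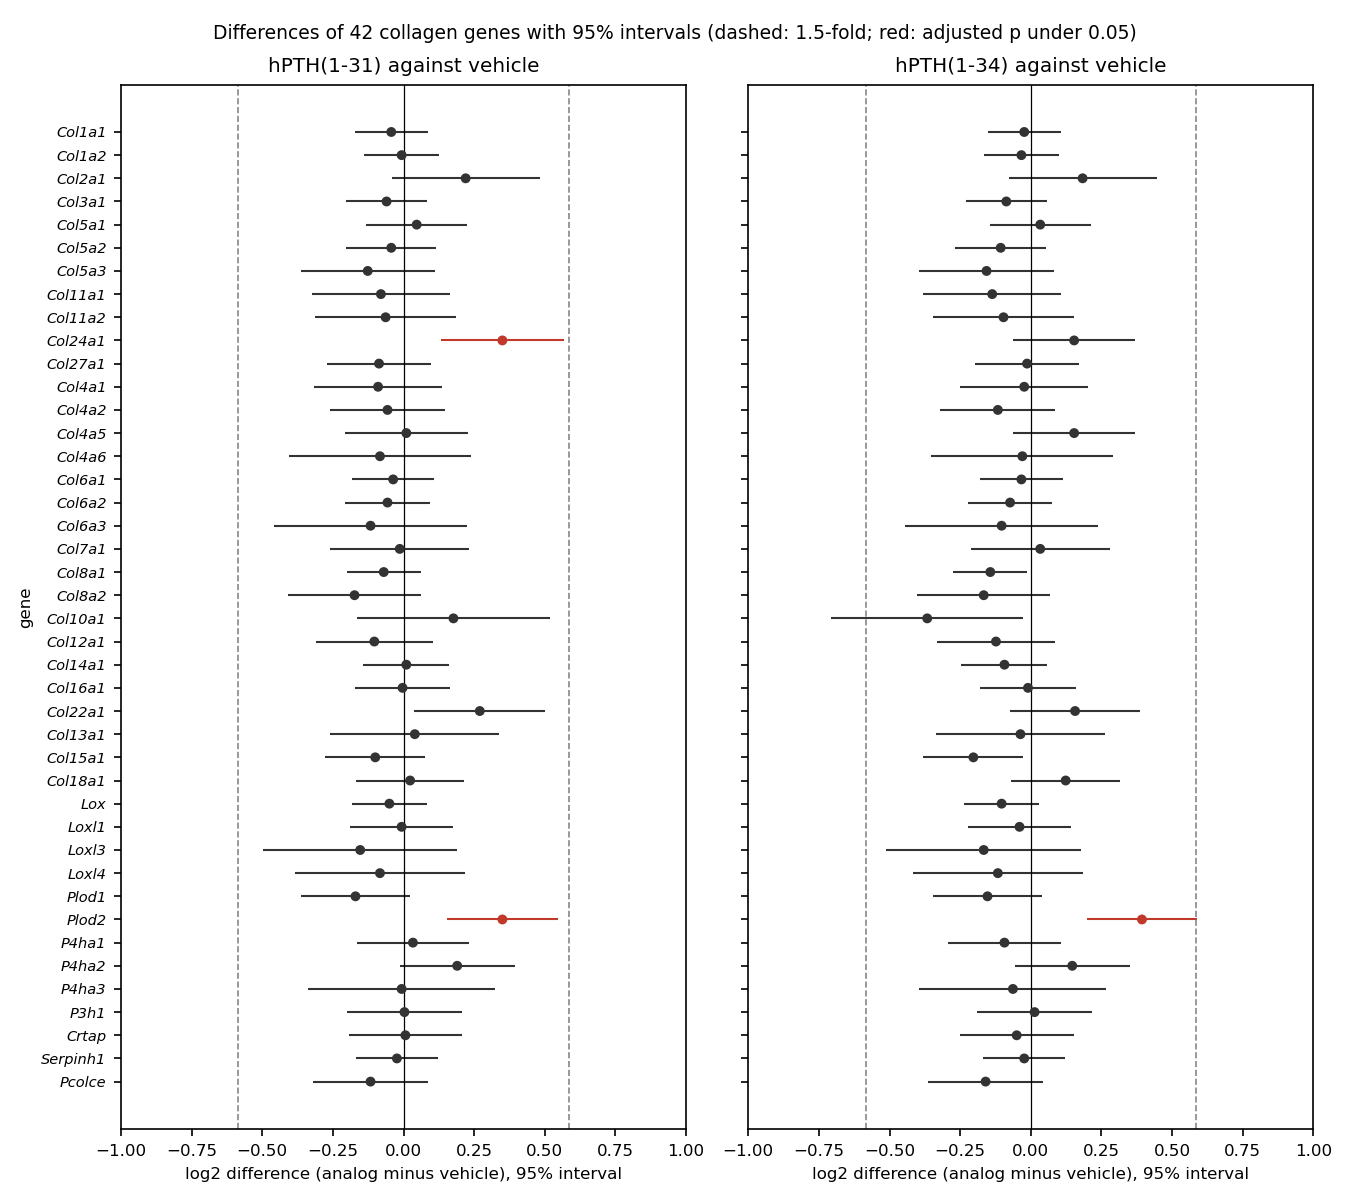
Log2 differences from vehicle (points) with 95% intervals (bars) of the 42 collagen genes for hPTH(1-31) and for hPTH(1-34), with dashed lines at a 1.5-fold change and called genes in red. All 42 intervals lie between the dashed lines for hPTH(1-31), and all but those of Col10a1 and Plod2 do so for hPTH(1-34).

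Each 95% interval gives a range for the difference in array signal of a single gene, without adjustment over genes or comparisons. The 95% interval of a difference from vehicle lay within a 1.5-fold change either way for 40 of 42 members with hPTH(1-34), against 69.9% of all genes. The count was 42 with hPTH(1-31) (70.1% of all genes), 41 with PTH(1-36) (70.4%), 42 with bPTH(3-34) (78.3%), 41 with hPTH(7-34) (76.4%) and 42 with bPTH(7-34) (78.7%). The exceptions were Col10a1 and Plod2 with hPTH(1-34), Plod2 with PTH(1-36) and Col11a2 with hPTH(7-34). In each of these 6 comparisons all 42 intervals lay within a 2-fold change. Members had narrower intervals than the array at large, with a median half-width of 0.20 against 0.30 for all genes, so the counts reflect spread as well as difference.

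Small shifts without a call ran mostly downward with the intact analogs and with hPTH(7-34). Of 42 members, 32 were below vehicle with hPTH(1-34), 28 with hPTH(1-31), 30 with PTH(1-36) and 30 with hPTH(7-34). With bPTH(3-34) and with bPTH(7-34) the count was 17. With hPTH(1-34) the 42 members had a median difference of -0.06, against -0.01 for all genes, with hPTH(1-31) -0.04 against -0.02, and with PTH(1-36) -0.06 against -0.02. With bPTH(3-34) the median was 0.01 against 0 for all genes, with hPTH(7-34) -0.05 against 0, and with bPTH(7-34) 0.01 against -0.01. Arrays of the analog lay wholly outside the vehicle arrays for 9 of 42 members with hPTH(1-34), 2 above and 7 below, beside 23.4% of all genes. The count was 5 with hPTH(1-31) (22.1% of all genes), 7 with PTH(1-36) (20.5%), 3 with bPTH(3-34) (10.1%), 4 with hPTH(7-34) (12.3%) and 2 with bPTH(7-34) (8.48%). At an unadjusted p under 0.05, hPTH(1-34) gave 1 member higher and 3 lower (Col8a1, Col10a1 and Col15a1), whereas hPTH(1-31) gave 3 higher and PTH(1-36) 2 higher, with 0 lower. These were 9.52%, 7.14% and 4.76% of members, beside 19.7%, 19.4% and 18.9% of all genes.

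No member was called in limma with a truncated analog against vehicle. With bPTH(3-34) the share of all genes called was 0%, and 0 members had an unadjusted p under 0.05. With hPTH(7-34) it was 0.0721%, and Col2a1 and Col11a2 had an unadjusted p under 0.05, both lower. With bPTH(7-34), at its higher dose, it was 0%, and 0 members had an unadjusted p under 0.05. The shares of all genes at that unadjusted threshold were 5.92% with bPTH(3-34), 8.19% with hPTH(7-34) and 5.19% with bPTH(7-34). The 2 members with hPTH(7-34) were 4.76% of members.

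**Figure D4:**
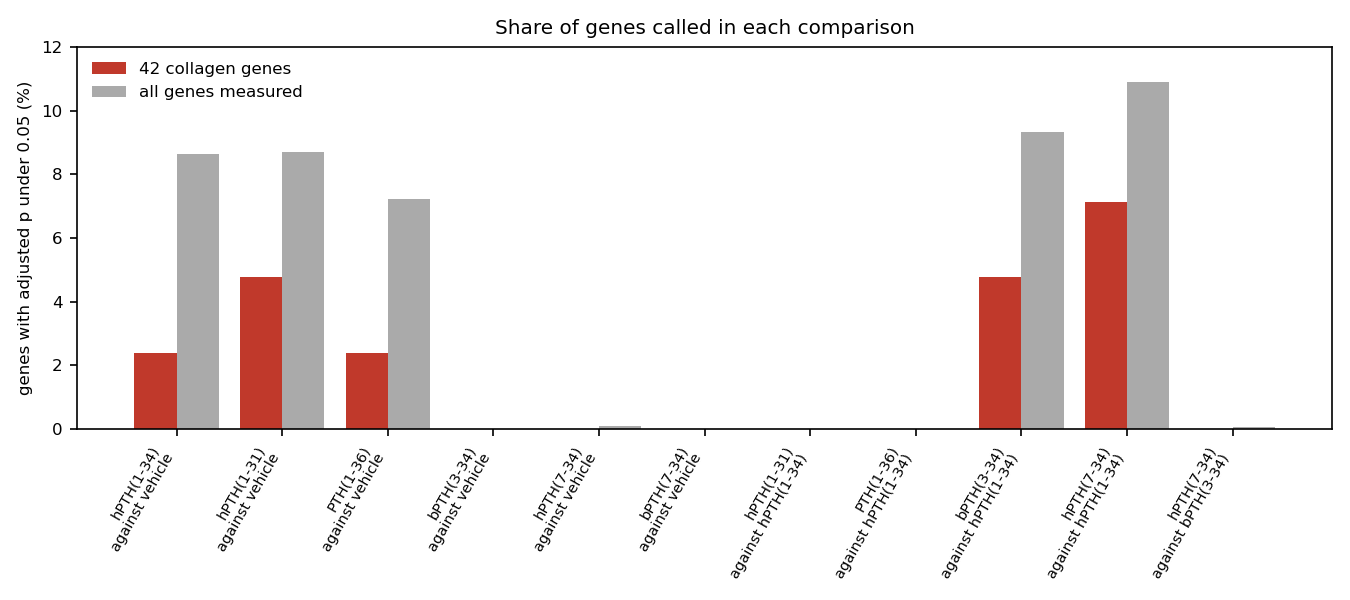
Share of genes called at an adjusted p under 0.05 (vertical axis, percent) in each of 11 comparisons, for the 42 collagen genes (red) and all 22180 genes (grey). The red bar is below the grey bar in the 5 comparisons with a called member, and the other comparisons hold no called member.

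Analogs given at the same dose and time were compared directly in 5 pairs, with p-values adjusted over genes and not over pairs. The intact analogs differ at the carboxyl end. Between hPTH(1-31) and hPTH(1-34) no member was called, beside 0% of all genes, and 1 member, Col10a1, had an unadjusted p under 0.05. At that unadjusted threshold this was 2.38% of members, beside 4.48% of all genes. The 95% interval lay within 1.5-fold for 41 of 42 members, against 79.9% of all genes, and the Plod2 difference was -0.04 (95% interval -0.24 to 0.15). Between PTH(1-36) and hPTH(1-34) no member was called, beside 0.00451% of all genes, and 1 member, Col15a1, had an unadjusted p under 0.05. At that unadjusted threshold this was 2.38% of members, beside 6.42% of all genes. There the interval lay within 1.5-fold for 42 of 42 members, against 78.0% of all genes, and the Plod2 difference was 0.01 (95% interval -0.19 to 0.21).

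Truncated and intact analogs differed at a few members. bPTH(3-34) differs from hPTH(1-34) in species of origin as well as in its missing first residues, whereas hPTH(7-34) is human like it. In bPTH(3-34) against hPTH(1-34), 2 members were called, both higher, beside 9.32% of all genes called and 5.38% called higher. Col8a1 was higher by 0.26 ± 0.06 (adjusted p = 0.0103), with means of 11.60 ± 0.03 and 11.34 ± 0.04 in bPTH(3-34) and hPTH(1-34) arrays (SD, n = 3 each). Col15a1 was higher by 0.28 ± 0.08 (adjusted p = 0.0431), with means of 6.05 ± 0.04 and 5.77 ± 0.07 in the same order. Plod2 was lower in bPTH(3-34) arrays without a call, by a difference of -0.25 (95% interval -0.44 to -0.05, adjusted p = 0.118). Both calls were lost with only the compared arrays in the fit (adjusted p = 0.122 for Col8a1 and 0.114 for Col15a1). Without the second hPTH(1-34) array Col8a1 had an adjusted p of 0.0522, and Col15a1 was lost without any 1 of the 6 arrays (up to 0.145).

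In hPTH(7-34) against hPTH(1-34), 3 members were called, beside 10.9% of all genes. Col8a1 was the 1 member higher, beside 6.66% of all genes called higher, and Col2a1 and Plod2 were the 2 lower, beside 4.2% called lower. Plod2 averaged 8.92 ± 0.10 in hPTH(7-34) arrays and 9.28 ± 0.12 in hPTH(1-34) arrays (SD, n = 3 each), a difference of -0.37 ± 0.09 (adjusted p = 0.0146). Col2a1 averaged 7.76 ± 0.31 and 8.23 ± 0.13 in those groups, a difference of -0.48 ± 0.12 (adjusted p = 0.0174), with the 2 low hPTH(7-34) arrays described above. Col8a1 was higher by 0.20 ± 0.06 (adjusted p = 0.0419). All 3 calls were lost with only the compared arrays in the fit (adjusted p from 0.0886 for Plod2 to 0.194 for Col8a1). Leaving out single arrays also ended each of them, up to an adjusted p of 0.0767 for Plod2 (without the third hPTH(1-34) or the second hPTH(7-34) array), 0.108 for Col2a1 (without the third hPTH(1-34) or the first or second hPTH(7-34) array) and 0.142 for Col8a1 (without any 1 of the 6).

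Between the truncated analogs, hPTH(7-34) against bPTH(3-34), no member was called, beside 0.0496% of all genes. Col11a2 had an unadjusted p under 0.05, with a difference of -0.26 ± 0.12 (adjusted p = 0.959). At that unadjusted threshold this was 2.38% of members, beside 5.07% of all genes. The Plod2 difference was -0.12 (95% interval -0.32 to 0.08). bPTH(7-34) was given at 10 times the dose of the others and was set against vehicle only.

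Some genes that act on collagen or bind it, from lists that hold no member of the module, differed from vehicle by more than any member. The called counts below stand beside 8.64%, 8.7% and 7.23% of all genes called with hPTH(1-34), hPTH(1-31) and PTH(1-36). Of 22 measured genes of processing, folding and secretion, 2 rose with every intact analog. Adamts3, a protease that removes the amino propeptide, was higher than in vehicle by 1.20 with hPTH(1-34), 1.03 with hPTH(1-31) and 1.05 with PTH(1-36) (adjusted p = 2.4e-06, 1.5e-05 and 1.5e-05). Tll1, a relative of the protease that removes the carboxyl propeptide, was higher by 0.53, 0.49 and 0.45 (adjusted p up to 0.00102). P3h2, a prolyl 3-hydroxylase, was called lower with PTH(1-36) (-0.37, adjusted p = 0.026), and Mia3, which helps load procollagen into transport vesicles, was called with the intact arrays together (0.32, adjusted p = 0.018).

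Of 19 measured genes for proteins that sit on or organise fibrils, Tgfbi rose and Thbs1 and Ccn2 fell with every intact analog. Tgfbi, a collagen-binding adhesion protein, was higher by 0.82, 0.79 and 0.68 with hPTH(1-34), hPTH(1-31) and PTH(1-36). Thbs1, thrombospondin 1, fell by 0.82, 0.66 and 0.66, and Ccn2, connective tissue growth factor, fell by 1.07, 1.09 and 0.99 (adjusted p up to 0.00084 among these 9 differences). Thbs2 was also called lower with hPTH(1-34) (-0.27, adjusted p = 0.0082). Of 8 measured collagen receptors, Itga2 (integrin alpha 2) fell by 1.03, 0.87 and 0.85 and Ddr1 (a receptor tyrosine kinase for collagen) by 0.37, 0.39 and 0.42 with the same 3 analogs, with adjusted p up to 0.033.

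Of 15 further collagen chains outside the module, 0 were called in any comparison with vehicle in limma, and from 0 to 4 had an unadjusted p under 0.05, the 4 with hPTH(7-34). With that analog 8.19% of all genes had an unadjusted p under 0.05, and these 15 chains had a median difference of -0.15. Col23a1, a transmembrane chain, was the 1 called between analogs, lower in hPTH(7-34) than in hPTH(1-34) arrays (-0.44, adjusted p = 0.0263). Of 10 genes of collagen breakdown, Mmp9 alone was called, higher with hPTH(1-31) (0.39, adjusted p = 0.036), and the collagenase Mmp13 differed from vehicle by -0.01 with hPTH(1-34), 0.07 with hPTH(1-31) and 0.19 with PTH(1-36), without a call. Plod2 is known as a target of the hypoxia response in several cell types, and a part of that response in the Plod2 difference was not tested. The 14 measured hypoxia-responsive genes went both ways. Vegfa, Ndrg1 and Slc2a1 were called higher with every intact analog, while Adm was called lower with every one (-1.85 with hPTH(1-34)) and Pdk1 with 2 of the 3. No gene in these lists was called in limma with a truncated analog against vehicle, and apart from the further collagens each list held 0 or 1 gene at an unadjusted p under 0.05 in those comparisons.

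**Figure D5:**
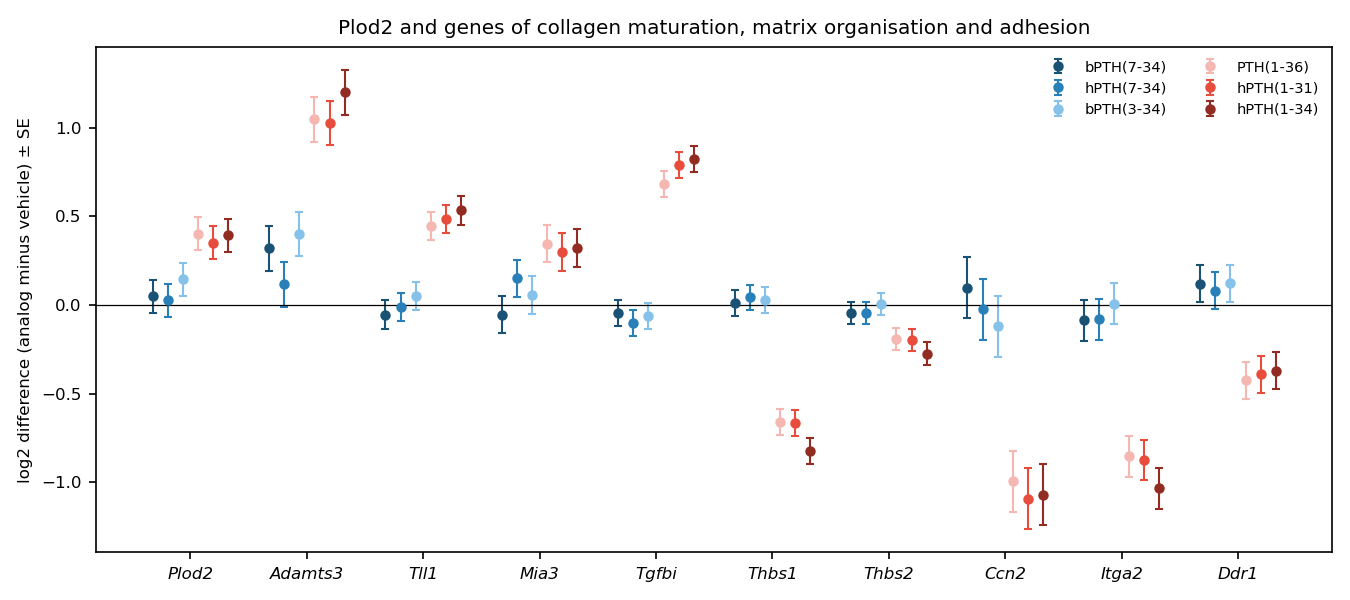
Log2 difference from vehicle (points, with SE as bars) of Plod2 and 9 genes of procollagen processing, matrix organisation and collagen adhesion for each of the 6 analogs. The red points of the intact analogs leave 0 for every gene shown, upward from Plod2 to Tgfbi and downward from Thbs1 to Ddr1, and the blue points of the truncated analogs stay near 0 apart from Adamts3.

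Signals of other cell types give the setting of these results. The summed signal of 11 macrophage and osteoclast markers was 94.9 to 95.93 in hPTH(1-34) arrays and 94.6 to 95.83 in vehicle arrays, with 0 of 11 called in limma with any analog against vehicle and at most 1 at an unadjusted p under 0.05. In hPTH(7-34) arrays it was 95.61 to 97.51. The 8 osteoblast markers summed to 49.86 to 51.75 with hPTH(1-34) and 51.85 to 53.47 with vehicle, so these ranges did not overlap. With PTH(1-36) the sum was 48.77 to 50.83, also wholly below vehicle, and with hPTH(1-31) it was 49.08 to 54.65 and overlapped vehicle. Within that list Pth1r, the PTH receptor, and Sp7, an osteoblast transcription factor, were called lower with every intact analog (-1.10 and -0.56 with hPTH(1-34)), and Alpl was called higher with hPTH(1-34) (0.56) and hPTH(1-31) (0.57). Vessel cells are a known source of Col8a1, and the 5 endothelial markers summed to 19.64 to 20.1 with hPTH(1-34) and 19.94 to 20.29 with PTH(1-36), below the 20.31 to 21.17 of vehicle, and to 18.36 to 20.82 with hPTH(1-31), which overlapped it. With the truncated analogs, where Col8a1 signals were above vehicle, the endothelial sums were 19.45 to 20.18 (bPTH(3-34)), 19.85 to 21.25 (hPTH(7-34)) and 19.57 to 20.25 (bPTH(7-34)). Of these markers, Tek was called lower with every intact analog (-0.65 with hPTH(1-34)) and Kdr higher with hPTH(1-31) (0.63) and PTH(1-36) (0.61), while Emcn averaged 1.95 and Pecam1 3.66 in vehicle arrays. The 5 smooth muscle markers summed to 40.98 to 41.34 with hPTH(1-34) and 39.27 to 40.17 with vehicle, with Cnn1 called higher (2.10) and Tagln lower (-0.36). The 5 tendon and fibroblast markers summed to 46.26 to 46.55 with hPTH(1-34) and 46.9 to 47.41 with vehicle, with Scx called lower (-1.43), while Pdgfra was called higher with PTH(1-36) (0.25). The 4 adipocyte markers summed to 16.69 to 16.89 with hPTH(1-34) and 16.46 to 17.41 with vehicle, with Pparg called lower (-0.61). The part of cell composition in the Plod2 and Col8a1 differences was not tested.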

How the data were processed

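Values were deposited by the authors as 1 table of log2 signals per probe set, summarised with RMA in Affymetrix Expression Console, per the submitters' processing notes. The log base is not stated in the sources used here and was read as 2. Background correction and quantile normalization are steps of RMA, so differences are relative to a common signal distribution across arrays. Of 41345 probe sets, 23521 carried 1 gene symbol, and the one with the highest mean per gene gave 22180 genes. No further normalization or filter was applied.

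All 21 arrays were fitted with limma 3.58.1 in R 4.3.3 (lmFit and eBayes on group means, two-sided). P-values were adjusted by Benjamini-Hochberg over all genes in each comparison and called at 0.05. The fit was tested on simulated data. P-values rest on 3 preparations per group, and their number limits the precision. The 12 members with the smallest p in the F test over the analogs, and the 3 main chains and the Hsp47 gene, were named with their values, and so were up to 4 genes of each other list by the same test. P3h2 and Slc2a1 were named after their values were seen. The members, lists and comparisons were chosen with earlier results of these data known. Alternatives were a variance trend, the compared groups alone, a filter on dim genes, quantile normalization, a replicate block, and leaving out each array in turn.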

Additional observations from a re-analysis of the deposited data

How the results depend on the processing

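In the counts of called members, an alternative moved these by over 1.5 times. With only the compared arrays in the fit, counts were 0 with hPTH(1-34), 0 with hPTH(1-31), 0 with PTH(1-36), 0 in bPTH(3-34) against hPTH(1-34) and 0 in hPTH(7-34) against hPTH(1-34), and calls over all genes were 936, 928, 606, 1217 and 1425, against 1917, 1930, 1603, 2068 and 2409 with all arrays; fewer arrays entered these fits. With a variance trend, hPTH(1-34) gave 2 (Col8a1 and Plod2) and hPTH(1-31) gave 1 (Plod2). The filter on dim genes gave 2 for the intact analogs as 1 group (Col24a1 and Plod2), with Col4a6 left out. Quantile normalization gave 1 in bPTH(3-34) against hPTH(1-34) (Col8a1). For the other settings the cause was not tested.

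Same-numbered arrays were not taken as paired: over all genes their correlations ran from -0.08 to 0.16 and 1 of 63 was over 0.1. As a hint of shared deviations, 14 of 21 arrays correlated best with their own number. For Pcolce and P4ha3 the third array was the lowest in every group, and for Col6a3, Col11a1 and Col12a1 the highest. The main fit leaves such deviations in its error term, which adds to the spread of these genes and limits what a missing call means for them. With the replicate number as a block, the count was 2 with PTH(1-36) (Plod2 and Pcolce), 2 with the intact analogs as 1 group (the same genes) and 4 in bPTH(3-34) against hPTH(1-34) (Col11a1, Col8a1, Col8a2 and Col15a1).

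Leaving out each array in turn gave 0 to 1 called members with hPTH(1-34), 0 to 2 with hPTH(1-31), 0 to 1 with PTH(1-36), 1 to 1 with the intact analogs as 1 group, 0 to 1 in bPTH(3-34) against hPTH(1-34), 0 to 3 in hPTH(7-34) against hPTH(1-34), and 1 to 4 in the F test. No named difference changed sign under any alternative run. The 3 arrays per group limit the precision.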
